A study of Mus musculus with 6 samples.

Results

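The genes described here are 56 nuclear genes of the mouse, out of 28738 genes in the table of values. Most of their products import proteins into mitochondria, fuse and divide mitochondria, or fold, degrade and recycle mitochondrial components. The 56 genes were taken by symbol: every gene named Tomm or Timm followed by a digit, and 31 further genes chosen by name, from the mitofusins to the VDAC channels. The symbol rule also took in the antisense gene Tomm6os. RNA was sequenced from pools of about 150 fully-grown oocytes at the germinal vesicle (GV) stage, in which the nucleus of the oocyte is still intact before meiosis resumes. The 3 libraries of Uba3 cKO oocytes carry a conditional knockout of Uba3, and the 3 control libraries are labelled only as control. Mice of every group have the strain label C57/Bl6/N;129SvEv7. The sources used here do not give the driver of the deletion, the ages of the mice or the number of mice behind a pool. UBA3 is the part of the NEDD8-activating enzyme that holds the active site, and NEDD8 is a small ubiquitin-like protein attached to cullins and other targets.

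Almost all mitochondrial proteins are made in the cytosol and enter through the TOM complex of the outer membrane. They are then sorted by the TIM23 complex to the matrix and inner membrane, or by the TIM22 complex and the small TIM chaperones to the inner membrane as carriers. Mitofusins and OPA1 fuse mitochondria, DRP1 (gene Dnm1l) divides them, and receptors such as FUNDC1 and BNIP3 mark damaged ones for removal by autophagy. The mouse oocyte holds a large stock of small, round mitochondria that the embryo inherits, and mouse oocytes without MFN1, DRP1 or CLPP are known to be impaired.

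Levels are log2 values normalized by the authors, and a difference is the Uba3 cKO mean minus the control mean on that scale. Genes were tested when their linear value was 10 or more in at least 3 libraries, and a gene was called at an adjusted p under 0.05 in limma. The target was lower in Uba3 cKO libraries: Uba3 had 10.03, 10.16 and 10.36 in Uba3 cKO oocytes, against 11.37, 11.46 and 11.34 in control oocytes (difference -1.21, SE 0.10, adjusted p = 2.07e-05). The exact permutation p (two-sided) was 0.1, and no smaller value is possible with 3 libraries a group. All 12 oocyte markers, such as Gdf9 and Zp3, passed the filter, and Bmp15 and Zp2 fell in Uba3 cKO libraries. Summed linear values of the oocyte markers were 440547 to 491098 in Uba3 cKO libraries and 499986 to 553097 in control libraries. Of 12 tested markers of theca, stroma and luteal cells, 6 fell in Uba3 cKO libraries (Cyp11a1, Lhcgr, Col1a2, Col3a1, Dcn and Acta2) and none rose. Summed linear values of the 13 genes of that marker list ran from 2574 to 3298 in Uba3 cKO libraries, against 3646 to 5734 in control libraries. Its markers Insl3 and, in the granulosa and cumulus list, Ptx3 were below the filter. For 12 genes of granulosa and cumulus cells, whose members Fshr and Kitl rose and Inhba and Aldh1a1 fell, the sums were 14311 to 17797 in Uba3 cKO libraries and 15617 to 20711 in control libraries. C1qb and Hbb-bs of 7 tested blood and immune markers fell, with sums of 525 to 575 in Uba3 cKO and 573 to 687 in control libraries, and C1qa and Hbb-bt were below the filter. Tie1 of 6 endothelial markers fell, with sums of 3731 to 4250 in Uba3 cKO and 3655 to 3987 in control libraries. The share of tested markers called was 16.7% in the oocyte list, 50% in the theca, stroma and luteal list and 36.4% in the granulosa and cumulus list. It was 28.6% in the blood and immune list and 16.7% in the endothelial list. Over all tested genes the share was 8.14% (5.64% higher and 2.5% lower), and no test was made of these shares. All these linear sums weigh the highest genes of a list most, and mean log2 levels ran from 3.99 (Emcn) to 11.3 (Pecam1) in the endothelial list. Tek was next to Pecam1 (10.23 in Uba3 cKO and 10.01 in control libraries), and Cdh5 was low (4.21 in Uba3 cKO and 4.35 in control libraries). In these bulk pools fewer cells of a type and less RNA per cell cannot be told apart, and the part of such cells in the values below was not tested.

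Few of the mitochondrial genes were called, each with a difference of less than 1.4-fold. Fundc1 and Mfn1 rose in Uba3 cKO oocytes, Timm50 fell, and 51 of the 54 tested members were not called. That is 5.56% called, read against 8.14% of all 17450 tested genes (5.64% higher and 2.5% lower in Uba3 cKO oocytes). The members stood at higher levels, with a median of 9.77 against 7.98 over all tested genes. At a mean level of 9 or more, 9.09% of 33 members were called, against 11.1% of 6614 genes. The median difference was -0.03 over the members, against -0.01 over all tested genes, and the members' differences ran from -0.45 to 0.46. At an unadjusted p under 0.05 there were 12 members (22.2%), 5 higher and 7 lower, against 22.8% of all tested genes. All 3 Uba3 cKO libraries lay outside the range of the 3 control libraries for 11 members (20.4%), 3 above and 8 below, against 27.9% of all tested genes. Missing the threshold does not show that a gene was unchanged: the 95% interval of the difference lay wholly between -0.5 and 0.5 for 46 of the 54 members, and for the other members the interval reached past that range.

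**Figure D1:**
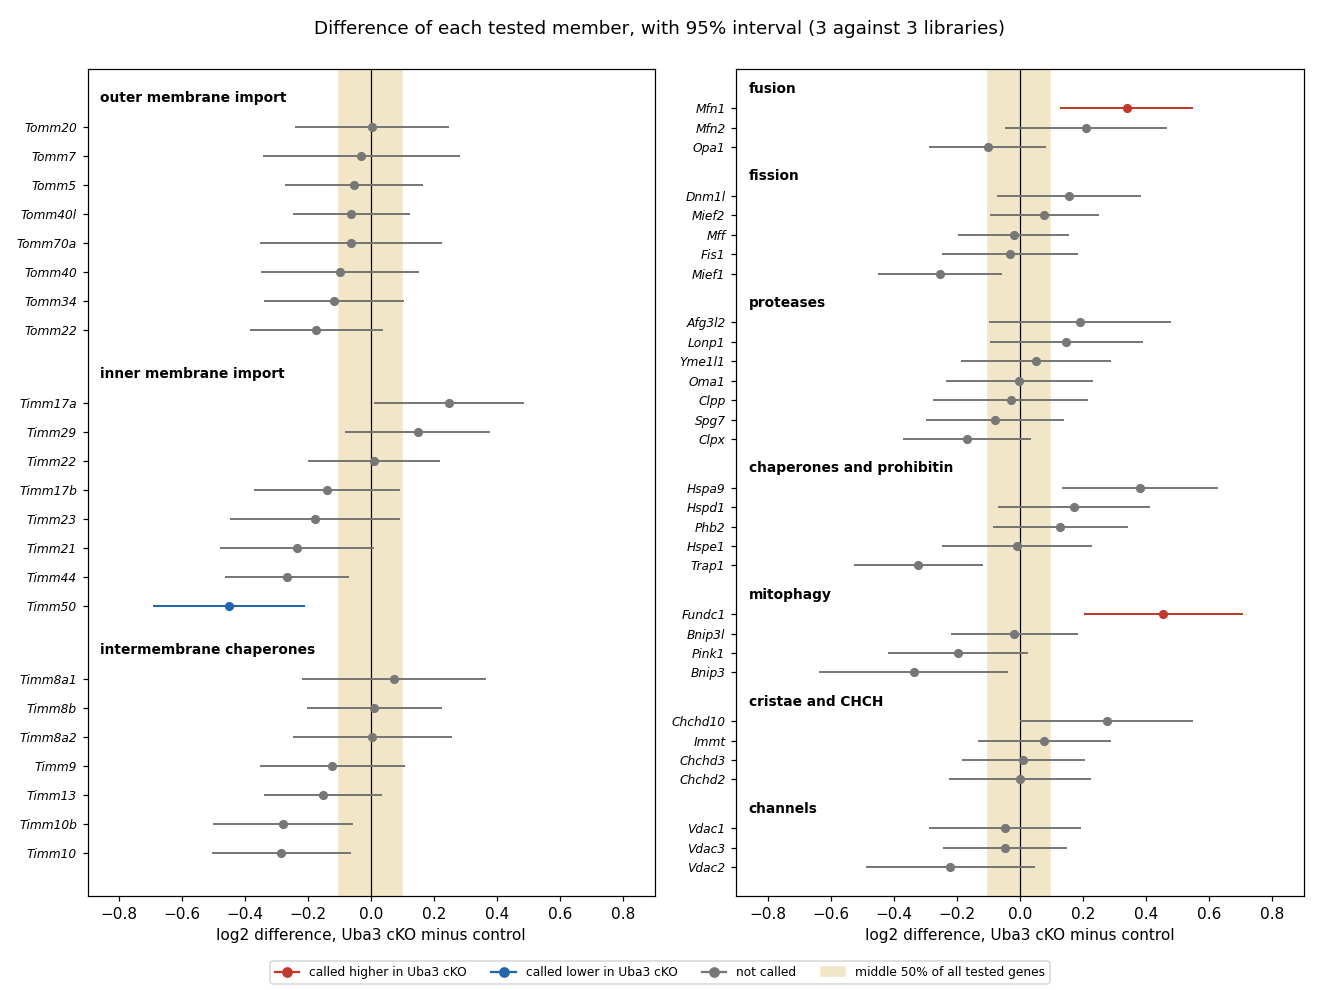
Each point is the log2 difference of a tested member (horizontal axis, Uba3 cKO minus control, 3 libraries each), with its 95% interval from limma, by role and sorted within it; the shaded band is the middle 50% of all tested genes, from -0.10 to 0.10. Fundc1 (0.46) and Mfn1 (0.34) are called higher, Timm50 (-0.45) is called lower, and most other intervals span 0.

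Fundc1 encodes an outer membrane receptor that recruits the autophagy machinery to mitochondria. It had 9.80, 10.08 and 9.90 in Uba3 cKO oocytes, against 9.63, 9.51 and 9.27 in control oocytes. The groups did not overlap, although Uba3 cKO replicate 1 lay close to control replicate 1. Fundc1 (ENSMUSG00000025040, X chromosome) averaged 9.93 ± 0.14 in Uba3 cKO and 9.47 ± 0.18 in control oocytes (SD, n = 3 each), a 1.37-fold higher level (difference 0.46, SE 0.12, adjusted p = 0.0283). It was no longer called when any of 4 libraries was left out: replicates 2 and 3 of control, and replicates 2 and 3 of Uba3 cKO. The weakest value came without control replicate 3 (difference 0.36, adjusted p = 0.150).

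Mfn1 encodes mitofusin 1, a GTPase that tethers and fuses outer membranes. Its values were 12.03, 11.96 and 12.10 in Uba3 cKO oocytes, against 11.85, 11.55 and 11.67 in control oocytes. Every Uba3 cKO library was above every control library, with control replicate 1 the nearest. Mfn1 (ENSMUSG00000027668, chromosome 3) averaged 12.03 ± 0.07 in Uba3 cKO and 11.69 ± 0.15 in control oocytes (SD, n = 3 each), a 1.26-fold higher level (difference 0.34, SE 0.10, adjusted p = 0.0461). This call sat at the threshold. It ended when all genes were tested without a level filter (adjusted p = 0.0591), with libraries centred on their medians (0.0575), with quantile normalization (0.0529), without the intensity trend (0.0582) and with the correction for length and GC content (0.0526). With the replicate number as a block the adjusted p of Mfn1 was 0.0655, and with that block and the length and GC correction it was 0.0823. It also ended without any library other than control replicate 1 (adjusted p up to 0.162).

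Timm50 encodes the TIM23 subunit that receives presequence proteins as they leave the TOM channel. Its values were 9.67, 9.58 and 9.46 in Uba3 cKO oocytes, against 9.85, 10.20 and 10.02 in control oocytes, so the groups did not overlap. Timm50 (ENSMUSG00000003438, chromosome 7) averaged 9.57 ± 0.11 in Uba3 cKO and 10.02 ± 0.18 in control oocytes (SD, n = 3 each). The level was 1.37-fold lower in Uba3 cKO oocytes (difference -0.45, SE 0.11, adjusted p = 0.0240). It was no longer called when replicate 2 or 3 of control, or replicate 3 of Uba3 cKO, was left out. The difference nearest 0 was -0.36, without control replicate 2, and the highest adjusted p was 0.107, without Uba3 cKO replicate 3.

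**Figure D2:**
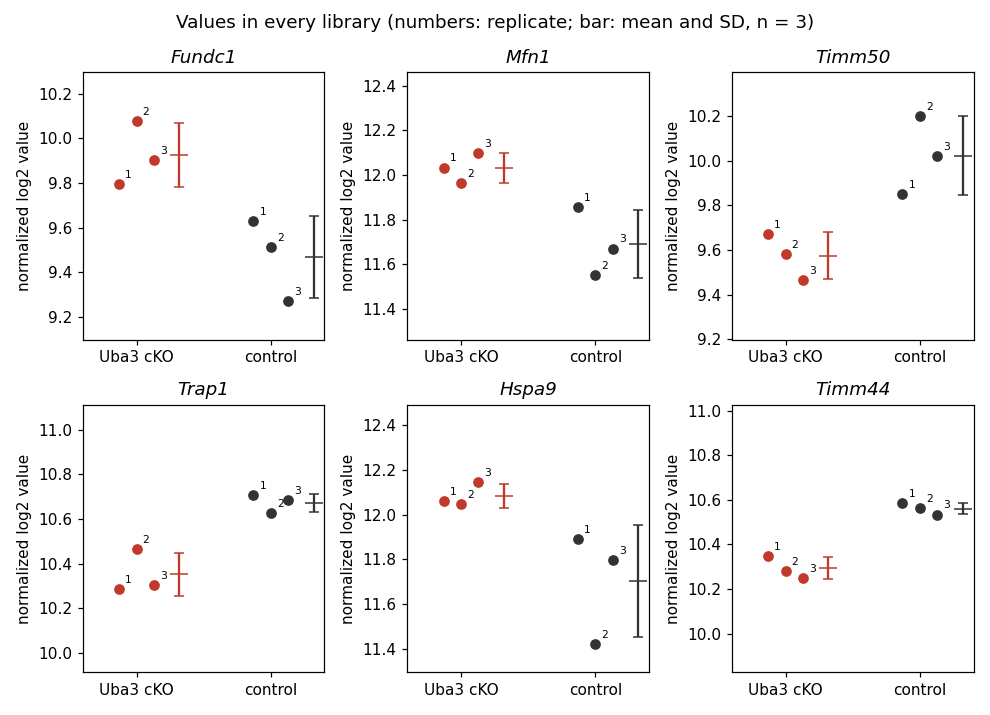
The vertical axis of each panel is the normalized log2 value, with 1 point per library numbered by replicate, for 3 Uba3 cKO (left) and 3 control libraries (right), and a bar for the mean and SD. Each of these 6 genes separates the groups, and the largest gap between libraries of a group is that of control replicate 2 of Hspa9, at 11.42 against 11.89 and 11.80 in the other control libraries.

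The 250 bases before the annotated start of each of the 3 called genes are shown as the sequence on which factors for these genes could act. They are RefSeq windows of build GRCm38.p6 in the direction of the gene, with capitals for the ETS core CCGGAAG and the SP box GGGCGG on either strand. The start used in the oocyte was not measured here, and none of these regions was assayed. The region of Fundc1 is chrX:17572008-17572257 (minus strand), that of Mfn1 is chr3:32529232-32529481 (plus strand) and that of Timm50 is chr7:28312047-28312296 (minus strand).
Fundc1: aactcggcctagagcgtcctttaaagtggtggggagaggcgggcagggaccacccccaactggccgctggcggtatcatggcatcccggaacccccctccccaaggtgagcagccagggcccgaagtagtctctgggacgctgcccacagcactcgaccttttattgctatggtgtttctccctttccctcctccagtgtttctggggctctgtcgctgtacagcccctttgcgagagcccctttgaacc
Mfn1: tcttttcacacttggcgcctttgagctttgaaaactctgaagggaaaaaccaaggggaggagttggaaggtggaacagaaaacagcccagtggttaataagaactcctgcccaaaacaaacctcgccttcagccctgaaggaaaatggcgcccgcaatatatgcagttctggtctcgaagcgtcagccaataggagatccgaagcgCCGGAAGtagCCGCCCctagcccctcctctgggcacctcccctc
Timm50: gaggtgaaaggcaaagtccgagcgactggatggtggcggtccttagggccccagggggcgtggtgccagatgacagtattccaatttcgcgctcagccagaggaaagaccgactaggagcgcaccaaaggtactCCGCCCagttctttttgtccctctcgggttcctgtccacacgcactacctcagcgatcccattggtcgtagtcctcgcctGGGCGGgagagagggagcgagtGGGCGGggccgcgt
The Mfn1 window has an ETS core next to an SP box, the Timm50 window has 3 SP boxes, and the Fundc1 window has no match to any of the 8 motifs searched. A match is a description of these letters and not a bound site.

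Promoter windows (250 bases before to 50 after the start) were found in the RefSeq table for 47 of the 56 genes, 56 windows in all. The ETS core CCGGAAG was in 23 of them (41.1%), against 11.6% of the 21263 windows of protein-coding genes, and in 21 of the 47 genes. The NRF1 motif, GCGCA followed by any base and GCGC, was in 9 windows (16.1%), against 6.38% of the protein-coding windows. It was in the windows of Bnip3, Hspd1, Immt, Oma1, Opa1, Pink1, Spg7, Timm8b and Tomm20, none of which was called. GGGCGG was in 62.5% of member windows, against 46.2%, and the E-box CACGTG in 17.9%, against 7.84%. The cyclic AMP response element TGACGTCA, the estrogen-related receptor motif TCAAGGTCA, the YY1 motif AAGATGGC and the ATF4 motif TGATGNAA were each in 1 member window (1.79%). Their shares of the protein-coding windows were 2.23%, 0.334%, 3.05% and 3.6%, in that order. NRF1 and ETS-family factors are known regulators of nuclear genes for mitochondrial proteins. Both strands were searched, windows of a gene with several starts can overlap, and no test was made of these shares.

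Outer membrane import genes showed no call. Of the 10 genes with a Tomm name, 8 were tested, and their differences ran from -0.18 to 0.00 with a median of -0.06. Tomm22, a receptor that also organizes the TOM complex, was the lowest of them, with 10.68, 10.77 and 10.73 in Uba3 cKO oocytes against 10.92, 11.02 and 10.76 in control oocytes. Uba3 cKO replicate 2 overlapped control replicate 3 at this gene (difference -0.18, adjusted p = 0.305). Tomm20, the receptor for presequences, had 9.50, 9.82 and 9.79 in Uba3 cKO oocytes against 9.74, 9.79 and 9.57 in control oocytes (difference 0.00, 95% interval -0.24 to 0.24). The channel gene Tomm40 differed by -0.10, its paralog Tomm40l by -0.06, the carrier receptor gene Tomm70a by -0.06 and Tomm34, a cytosolic co-chaperone, by -0.12. The small subunit genes Tomm5 and Tomm7 differed by -0.05 and -0.03.

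Tomm6, another small TOM subunit, and its antisense gene Tomm6os were below the filter in every library and were not tested. Tomm6 was at 1.92, 1.94 and 1.97 in Uba3 cKO oocytes and at 1.91, 1.96 and 1.93 in control oocytes. Tomm6os was between 2.52 and 2.58 in Uba3 cKO oocytes and between 2.53 and 2.59 in control oocytes. In the annotation used here (GRCm38) 76.0% of the Tomm6 exon bases are shared with Gm21981 on the same strand, and 19.4% with Tomm6os on the opposite strand. Gm21981 is not among the genes with values. Whether the annotation that the authors counted on, of build GRCm39, holds it is not known. A low value of Tomm6 therefore cannot be told apart from reads left unassigned by the counting. Tomm40l is likewise uncertain, since 64.3% of its exon bases overlap Nr1i3 on the opposite strand and the strand setting of the counting was not given.

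Among the 8 inner membrane import genes, Timm50 fell and the others were not called. Timm44, which tethers the matrix HSP70 motor to the TIM23 channel, had 10.35, 10.28 and 10.25 in Uba3 cKO oocytes against 10.59, 10.56 and 10.53 in control oocytes. These groups were tight and did not overlap, and the difference was -0.27 (SE 0.09, adjusted p = 0.0887). Timm21, which links TIM23 to TOM and the respiratory chain, had 9.49, 9.52 and 9.83 in Uba3 cKO oocytes against 9.79, 9.96 and 9.80 in control oocytes, with Uba3 cKO replicate 3 inside the control range (difference -0.24). Timm17a, a channel subunit, was the highest, with 11.03, 10.68 and 10.86 in Uba3 cKO oocytes against 10.74, 10.51 and 10.58 in control oocytes (difference 0.25, adjusted p = 0.195). Without Uba3 cKO replicate 1 the Timm17a difference was 0.16. Its paralog Timm17b, on the X chromosome, differed by -0.14. The channel gene Timm23 had 10.73, 10.69 and 10.64 in Uba3 cKO oocytes against 10.59, 11.16 and 10.85 in control oocytes, spread mostly by control replicate 2 (difference -0.18). Timm22, the carrier translocase, and Timm29, its partner, differed by 0.01 and 0.15.

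The 7 small TIM chaperones, which shield hydrophobic proteins in the intermembrane space, had a median difference of -0.12 and no call. Timm10, the partner of Timm9 in the main hexamer, had 7.67, 7.58 and 7.66 in Uba3 cKO oocytes against 7.81, 8.04 and 7.91 in control oocytes. Timm10b, which docks that hexamer on TIM22, had 8.18, 8.10 and 8.31 in Uba3 cKO oocytes against 8.55, 8.41 and 8.47 in control oocytes. Neither gene's groups overlapped, and the differences were -0.29 (adjusted p = 0.106) and -0.28 (adjusted p = 0.114). Timm9 overlapped, with 10.96, 10.84 and 11.21 in Uba3 cKO oocytes against 11.05, 11.19 and 11.14 in control oocytes (difference -0.12). Timm13 differed by -0.15, Timm8b by 0.01 and Timm8a2 by 0.00. Timm8a1 was the highest of the group (difference 0.07), with 7.02, 7.11 and 7.57 in Uba3 cKO oocytes against 7.02, 7.27 and 7.20 in control oocytes, and Uba3 cKO replicate 3 stood alone. Reads of the paralogs Timm8a1 and Timm8a2 could have been divided differently by the counting, and Timm10b shares 10.5% of its exon bases with Gm45799 on the same strand.

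Of the fusion genes, Mfn1 rose and Mfn2 and Opa1 were not called. Mfn2, the second mitofusin, had 9.16, 8.94 and 9.22 in Uba3 cKO oocytes against 9.07, 8.71 and 8.92 in control oocytes, with overlap (difference 0.21, adjusted p = 0.312). Without control replicate 2 the Mfn2 difference was 0.12. Opa1, which fuses inner membranes and shapes cristae, had 11.73, 11.68 and 11.64 in Uba3 cKO oocytes against 11.81, 11.74 and 11.81 in control oocytes. Its groups came close without overlapping, and the difference was -0.10 (adjusted p = 0.519). Whether Mfn1 and Mfn2 differ in their response was not tested.

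None of the 5 fission genes was called. Mief1, an outer membrane receptor for DRP1, had 10.67, 10.68 and 10.80 in Uba3 cKO oocytes against 11.01, 10.96 and 10.94 in control oocytes, with no overlap (difference -0.25, SE 0.09, adjusted p = 0.108). Dnm1l, the fission GTPase itself, had 12.22, 12.21 and 12.02 in Uba3 cKO oocytes against 12.21, 11.86 and 11.91 in control oocytes, with control replicate 1 among the Uba3 cKO values (difference 0.16). Mff, the main DRP1 receptor in many cells, had 13.27, 13.18 and 13.30 in Uba3 cKO oocytes against 13.31, 13.33 and 13.19 in control oocytes (difference -0.02, 95% interval -0.19 to 0.15). Fis1, an outer membrane adaptor, differed by -0.03, and Mief2, the paralog of Mief1, by 0.08. Per kb of exons Mief2 had the lowest level of all tested members (3.72 in Uba3 cKO and 3.64 in control oocytes).

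The 7 protease genes had a median difference of 0.00, from -0.17 to 0.19, and no call. Afg3l2, a subunit of the m-AAA protease, was the highest, with 8.59, 8.78 and 8.68 in Uba3 cKO oocytes against 8.82, 8.27 and 8.39 in control oocytes. Clpx, the unfoldase of the ClpXP protease, was the lowest, with 10.67, 10.54 and 10.73 in Uba3 cKO oocytes against 10.86, 10.80 and 10.78 in control oocytes and no overlap (difference -0.17, adjusted p = 0.309). Clpp, its peptidase partner, differed by -0.03 (95% interval -0.27 to 0.21). Lonp1, the matrix protease that also degrades the mitochondrial DNA packaging factor TFAM, differed by 0.15. Spg7, the partner of Afg3l2, differed by -0.08. The inner membrane proteases that cut OPA1 differed by 0.05 for Yme1l1, which had 10.66, 11.00 and 10.89 in Uba3 cKO oocytes against 10.90, 10.85 and 10.66 in control oocytes, and by 0.00 for Oma1.

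The HSP70 and HSP90 chaperones of the matrix lay on opposite sides of 0, and neither was called. Hspa9, the mitochondrial HSP70 that pulls proteins through TIM23, had 12.06, 12.05 and 12.15 in Uba3 cKO oocytes against 11.89, 11.42 and 11.80 in control oocytes. Trap1, the mitochondrial HSP90, had 10.29, 10.46 and 10.31 in Uba3 cKO oocytes against 10.71, 10.63 and 10.69 in control oocytes. Neither gene's groups overlapped. Hspa9 differed by 0.38 (SE 0.11, adjusted p = 0.0548) and Trap1 by -0.32 (SE 0.09, adjusted p = 0.0513), both just outside the threshold. With a level filter of 50, which leaves fewer genes to adjust over, the adjusted p was 0.0478 for Hspa9 and 0.0401 for Trap1. Control replicate 2 was the lowest library of Hspa9, and without it the difference was 0.24. Phb2, a prohibitin of the inner membrane scaffold, differed by 0.13 (adjusted p = 0.476).

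Hspd1 and Hspe1 encode the HSP60 chaperonin and its HSP10 lid, which fold matrix proteins together. Their genes are divergent neighbours. In RefSeq 215 bases lie between the Hspe1 start and the nearest Hspd1 start before it, at chr1:55087933-55088147 on chromosome 1 of GRCm38.p6. The shared region is shown in the direction of Hspe1 with ETS cores and SP boxes in capitals, because the pair is read from it in opposite directions. Its ETS cores, 1 on each strand, overlap each other.
Hspd1-Hspe1: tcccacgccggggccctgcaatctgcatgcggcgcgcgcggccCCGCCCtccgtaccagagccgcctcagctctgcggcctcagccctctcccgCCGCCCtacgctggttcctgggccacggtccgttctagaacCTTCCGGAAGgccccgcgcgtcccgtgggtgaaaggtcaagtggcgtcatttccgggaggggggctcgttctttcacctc
Hspd1 had 11.56, 11.74 and 11.60 in Uba3 cKO oocytes against 11.71, 11.34 and 11.33 in control oocytes (difference 0.17, adjusted p = 0.384). Hspe1 had 11.61, 11.45 and 11.49 in Uba3 cKO oocytes against 11.29, 11.71 and 11.58 in control oocytes (difference -0.01, adjusted p = 0.967). The libraries at the ends of the ranges did not match between the genes: control replicate 1 was the highest control library for Hspd1 and the lowest for Hspe1, and Uba3 cKO replicate 2 was likewise the highest and the lowest of its group. In the GENCODE annotation 112 exon bases are shared between the genes on opposite strands, so some annotated exons reach past these RefSeq starts. There Hspe1 has the shorter exons, 1474 against 2642 bases.

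Among the 4 mitophagy genes, Fundc1 rose and the others were not called. Bnip3, a receptor known to respond to hypoxia, had 10, 10.03 and 10.19 in Uba3 cKO oocytes against 10.26, 10.78 and 10.18 in control oocytes. Control replicate 2 stood far above the rest and control replicate 3 lay among the Uba3 cKO values (difference -0.34, SE 0.14, adjusted p = 0.160). Without control replicate 2 the Bnip3 difference was -0.15. Its paralog Bnip3l had 12.93, 12.84 and 13.03 in Uba3 cKO oocytes against 12.86, 13.11 and 12.89 in control oocytes (difference -0.02). Pink1, the kinase that accumulates on damaged mitochondria, differed by -0.20 (adjusted p = 0.276). Exons of Bnip3 overlap the antisense gene Gm45507 over 22.3% of their bases.

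The cristae and CHCH genes and the channels were not called. Chchd10, a small intermembrane space protein, had 7.74, 7.70 and 7.66 in Uba3 cKO oocytes against 7.27, 7.26 and 7.74 in control oocytes, so control replicate 3 was level with the Uba3 cKO libraries (difference 0.28, adjusted p = 0.210). Without that library the Chchd10 difference was 0.44. Its paralog Chchd2 had 11.96, 11.90 and 11.98 in Uba3 cKO oocytes against 11.75, 12.15 and 11.94 in control oocytes (difference 0.00). Immt, the core of the MICOS complex at cristae junctions, had 11.95, 12.03 and 12.17 in Uba3 cKO oocytes against 12.08, 11.83 and 12.02 in control oocytes (difference 0.08). Chchd3, another MICOS subunit, differed by 0.01. The VDAC channels, through which metabolites cross the outer membrane, differed by -0.05 for Vdac1 and Vdac3 and by -0.22 for Vdac2. Vdac2 had 11.49, 11.39 and 11.63 in Uba3 cKO oocytes against 11.80, 11.94 and 11.42 in control oocytes, with control replicate 3 inside the Uba3 cKO range. The Vdac2 difference was -0.11 without control replicate 2 and -0.37 without control replicate 3. Vdac3 had 13.27, 13.28 and 13.34 in Uba3 cKO oocytes against 13.35, 13.50 and 13.18 in control oocytes, and Vdac1 had 9.36, 9.65 and 9.40 in Uba3 cKO oocytes against 9.66, 9.47 and 9.42 in control oocytes.

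The chosen paralogs below, and the unrelated outer membrane proteins Mff and Fis1, stood at very different levels, and these pairs kept their order in each group. Levels of different genes are given per kb of annotated exons, as the log2 value minus the log2 of the exon length in kb, and they assume that the values scale with length. Mfn1 was at 9.42 in Uba3 cKO and 9.08 in control oocytes, far above Mfn2, at 6.73 in Uba3 cKO and 6.52 in control oocytes. Mff (9.97 in Uba3 cKO and 9.99 in control oocytes) was above Fis1 (7.72 in Uba3 cKO and 7.76 in control oocytes), and Mief1 (7.70 in Uba3 cKO and 7.95 in control oocytes) was above Mief2. Among channels, Vdac3 was at 10.86 in Uba3 cKO and 10.91 in control oocytes, Vdac2 at 9.25 in Uba3 cKO and 9.47 in control oocytes, and Vdac1 at 8.08 in Uba3 cKO and 8.13 in control oocytes. Timm17a (7.88 in Uba3 cKO and 7.63 in control oocytes) was above Timm17b (5.30 in Uba3 cKO and 5.44 in control oocytes). Tomm40 (6.33 in Uba3 cKO and 6.43 in control oocytes) was above Tomm40l (3.78 in Uba3 cKO and 3.84 in control oocytes), whose level is uncertain from the Nr1i3 overlap. Outside these pairs, Afg3l2 (5.38 in Uba3 cKO and 5.19 in control oocytes) and Spg7 (5.59 in Uba3 cKO and 5.67 in control oocytes) lay closer together. The highest tested member per kb was Bnip3l, at 10.99 in Uba3 cKO and 11.00 in control oocytes, followed by Hspe1, at 10.96 in Uba3 cKO and 10.97 in control oocytes. Exon lengths count every annotated exon of a gene, so genes with long isoforms not used in the oocyte are understated.

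**Figure D3:**
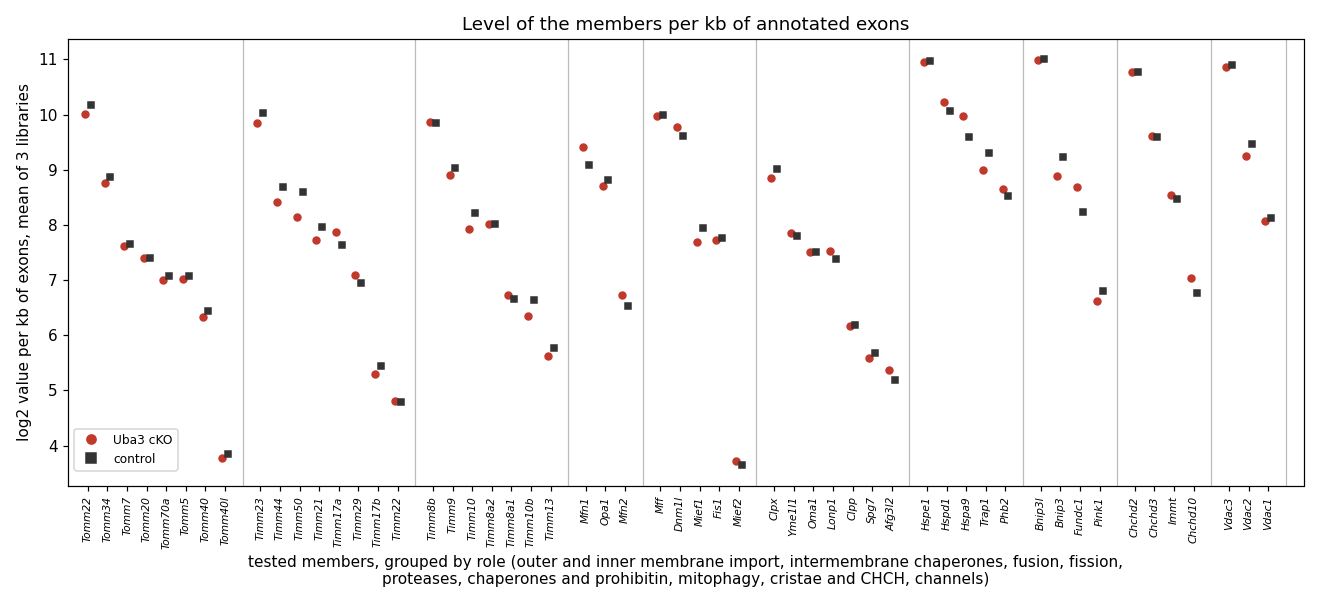
The vertical axis is the mean log2 value per kb of annotated exons over 3 Uba3 cKO libraries (circles) and 3 control libraries (squares) for each tested member, sorted within its role. Levels within a role spread far more than the groups differ, from 3.72 for Mief2 to 9.97 for Mff among the fission genes in Uba3 cKO oocytes.

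The control pools differed among themselves at many of these genes. Control replicate 2 was the highest library for 18 and the lowest for 12 of the 54 tested members, so it was an extreme for 55.6% of them, against 40.7% of all tested genes. The other libraries were an extreme for 24.1% to 33.3% of the members, against 27.8% to 41.5% of all tested genes. The highest of these shares of all tested genes, 41.5%, was that of Uba3 cKO replicate 3. In control replicate 2 the median deviation from the mean of the 6 libraries was -0.30 over the fusion genes, and it was 0.13 over the inner membrane import genes and 0.18 over the channels. Over all members the median deviations were -0.02, -0.03 and -0.03 in the Uba3 cKO libraries and 0.04, 0.07 and 0.00 in the control libraries. The rank correlation of the differences with exon length was 0.17 over the 54 members, against 0.08 over 17188 tested genes with a length. It is a description, since the genes share the same 6 libraries.

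**Figure D4:**
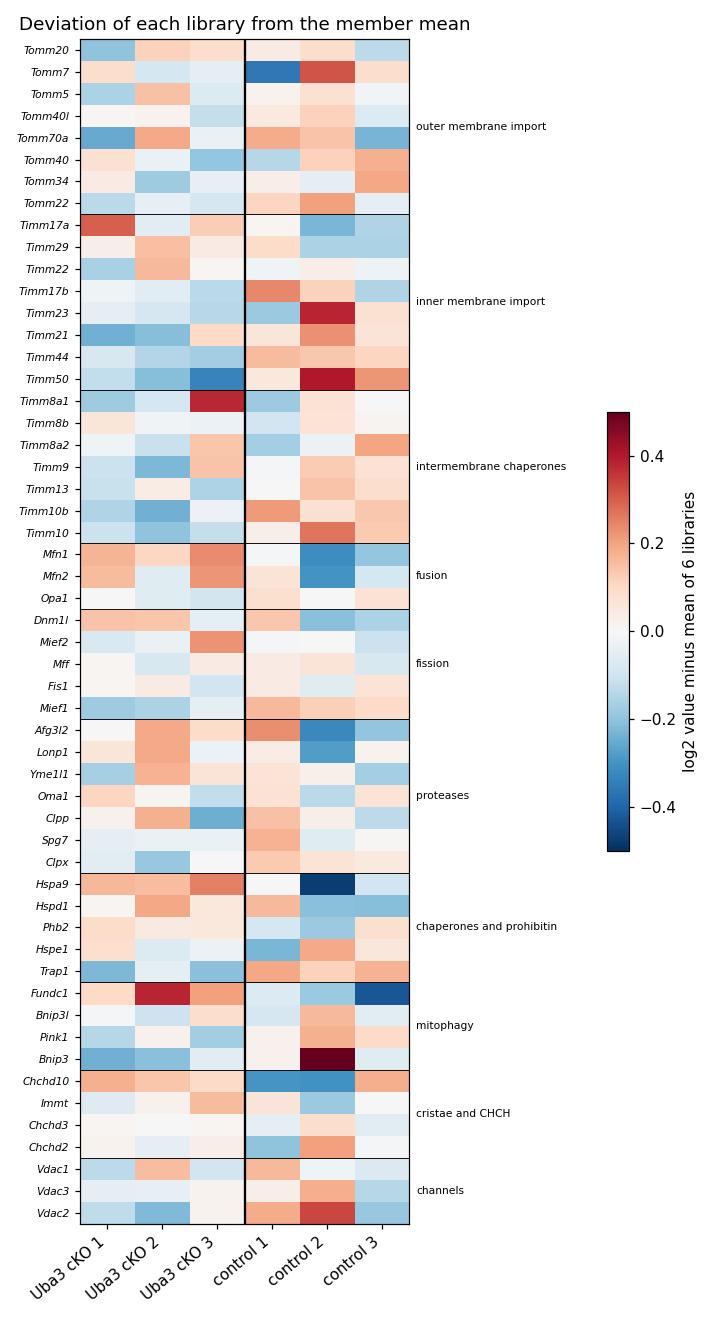
Colour gives the log2 value of each tested member in each library minus its mean over the 6 libraries, with the 3 Uba3 cKO libraries left of the line and the 3 control libraries right of it, and genes grouped by role. Control replicate 2 is the library farthest from the mean for 21 of the 54 genes, such as Bnip3 (10.78) above and Hspa9 (11.42) below the gene's mean.

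Other genes of the same pathways came from a list that excludes the 56. Of 66 tested genes 1 rose and 3 fell (6.06% called, against 8.14% of all tested genes), with a median difference of -0.06 against -0.01. At an unadjusted p under 0.05 there were 19 of the 66 (28.8%, against 22.8% of all tested genes), and the groups did not overlap for 22 (33.3%, against 27.9%). Within this list 12 genes were mitophagy genes, of which 2 fell and none rose (16.7% called, against 8.14% of all tested genes). This split was picked after its values were seen. At an unadjusted p under 0.05 there were 8 of these 12 (66.7%, against 22.8% of all tested genes), 3 higher and 5 lower. The groups did not overlap for 9 (75%, against 27.9%). Grpel2, a nucleotide exchange factor for the matrix HSP70, had 10.06, 10.01 and 10.28 in Uba3 cKO oocytes against 9.70, 9.66 and 9.52 in control oocytes (difference 0.50, SE 0.11, adjusted p = 0.0105). Grpel1, its paralog, differed by -0.03 (adjusted p = 0.908). Xpnpep3, an aminopeptidase that trims imported proteins, had 8.81, 8.90 and 8.96 in Uba3 cKO oocytes against 9.60, 9.59 and 9.52 in control oocytes, a 1.60-fold lower level (difference -0.68, SE 0.10, adjusted p = 8.56e-04). Fkbp8 and Bcl2l13 are outer membrane proteins that, like FUNDC1, can act as mitophagy receptors, and they fell. Fkbp8 had 9.47, 9.45 and 9.50 in Uba3 cKO oocytes against 9.85, 10.04 and 9.94 in control oocytes (difference -0.47, SE 0.10, adjusted p = 0.00892). Bcl2l13 had 10.32, 10.38 and 10.26 in Uba3 cKO oocytes against 10.81, 10.63 and 10.69 in control oocytes (difference -0.39, SE 0.10, adjusted p = 0.0230). The groups overlapped for none of these called genes.

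Grpel2 was no longer called when replicate 3 of either group was left out (highest adjusted p = 0.0667). Bcl2l13 lost its call when replicate 3 of either group, or replicate 1 of Uba3 cKO, was left out (highest adjusted p = 0.0948). Xpnpep3 and Fkbp8 were called without each library in turn, with adjusted p up to 0.00712 and 0.0460. Genes that report a mitochondrial stress response were not called: Atf4 differed by 0.28 (adjusted p = 0.118), Ddit3 by 0.25 (adjusted p = 0.153) and Atf5 by -0.02 (adjusted p = 0.879). Their 95% intervals, unadjusted for the number of genes, were 0.058 to 0.502, 0.034 to 0.473 and -0.175 to 0.127, in that order. The autophagy adaptor genes Optn and Sqstm1 differed by 0.26 and 0.20 (adjusted p = 0.115 and 0.216).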

How the data were processed

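RNA was extracted from oocyte pools with the PicoPure kit and sequenced on a NovaSeq after TruSeq library preparation, per the labels' protocols. Tools named in the submitters' processing notes are STAR, fastp, DESeq2 and featureCounts, with build GRCm39 and no versions or settings. Values in the deposited table are on a log2 scale, scaled between libraries by the authors, and run from 0.0363 to 18.01; the scale was read from the values and the transform is not named. If it is a regularized logarithm, differences of low genes are understated, which was not tested. Read counts were not used here, and depth per library is therefore unknown. All 6 columns of values were used, matched to samples by their labels.

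Symbols, exon lengths and GC content came from GENCODE M21 (GRCm38), which matched 27660 of 28738 gene IDs (96.2%). Promoter sequences are RefSeq, GRCm38.p6. Genes with a linear value of 10 or more in at least 3 libraries were kept (17450), and Uba3 cKO was compared with control by limma 3.58.1 with an intensity trend (R 4.3.3). P-values were adjusted over all kept genes by Benjamini-Hochberg, and each adjusted p is from this limma fit, or from its refit under an alternative where the sentence names one. The fit was tested on simulated data. Whether pools are from separate animals is not in the labels, and p-values here describe the spread among these 6 pools, which may be technical.

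The members and lists were chosen with earlier results of these data known. Values in every library are given for called members, for the 5 next by p, and for the highest member and the largest and smallest difference in each role, and for some others. Those others, and Grpel1, the stress genes, Optn, Sqstm1 and the split by mitophagy genes, were picked after their values were seen. Of 72 entries of the list of other pathway genes, 66 matched, and 3 of the 6 others are second names of matched genes. Alternatives covered the pseudocount, filter, scaling, variance model, weights, replicate block, length and GC correction, threshold and leaving out each library.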

Additional observations from a re-analysis of the deposited data

How the results depend on the processing

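Counts of called members were small and moved with most choices. As reported, 2 members were higher and 1 lower. The higher count was 1 without a level filter, with libraries centred on their medians, with quantile normalization, without the intensity trend and with the length and GC correction, alone or with the replicate block. It was 3 with a level filter of 50, with array weights and at an adjusted p under 0.1, within 1.5 times of 2. The lower count was 2 with a pseudocount of 5, a level filter of 50 and median centring, and 3 without the intensity trend, with array weights and at an adjusted p under 0.1. Counts over all tested genes, 984 higher and 437 lower as reported, also changed. They were 1469 higher and 829 lower with array weights, and 1386 higher and 790 lower at an adjusted p under 0.1. With a level filter of 50 they were 946 and 453 of 12962 genes, and without the intensity trend 848 and 406. Lower genes numbered 431 with a pseudocount of 5 and 477 with median centring. Leaving out 1 library gave 0 to 3 higher and 0 to 2 lower members. The higher count was 0 without replicate 2 or 3 of either group and 1 without replicate 1 of Uba3 cKO. The lower count was 0 without replicate 2 or 3 of control or replicate 3 of Uba3 cKO, and 2 without replicate 2 of Uba3 cKO. No member that was called in any setting changed direction. Of the 54 members, 47 stayed on their side of the threshold in every alternative run, and 4 that were not called (Hspa9, Trap1, Timm44 and Mief1) were called in at least 1. Timm50 and Fundc1 were called in all 12 alternatives that kept every library. The looser threshold of 0.1 is among these, and it could not end a call made at 0.05.

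The median over members was between -0.05 and -0.01 in every alternative, nearest 0 without control replicate 2. Of other pathway genes, 2 were higher with the length and GC correction, against 1 as reported, and leaving out 1 library gave 0 to 1 higher and 2 to 4 lower. Over all genes 984 were higher and 437 lower as reported, with 829 lower under array weights and 790 lower at an adjusted p under 0.1. Leaving out 1 library gave 482 to 1015 higher and 136 to 624 lower, the low counts coming without replicate 2 or 3 of control or replicate 1 or 3 of Uba3 cKO. Uba3 was called in every alternative, with differences from -1.30 to -1.13.

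The labels give both groups replicate numbers 1 to 3. Deviations of same-numbered libraries had correlations of -0.09, -0.20 and -0.05, and those of differently numbered libraries ran from -0.20 to 0.28. With 3 libraries a group these values cannot show whether same-numbered pools were prepared together. The main fit used no pairing. With a replicate block 899 genes were higher and 359 lower, 2 members were higher and 1 lower, Mfn1 was not called (adjusted p = 0.0655) and Hspa9 was (adjusted p = 0.0422). Depth is unknown and limits on low genes such as Tomm6 could not be set.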
